A study of Mus musculus with 56 samples.

Results

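Transcripts of 9 mouse genes that handle phosphate and vitamin D were measured in kidneys collected around the clock. The genes were Cyp24a1, Cyp27b1, Vdr, Slc34a1, Slc34a3, Slc20a2, Pdzk1, Kl and Fgfr1, and they were chosen by name from the 17027 genes of the deposited kidney table. All 9 had a row in the table and a mean of at least 1 TPM (a level scaled to transcript length and library size), the filter below which genes were not tested. Female C57BL/6J mice, 9 weeks old at collection and kept in 12 h of light and 12 h of dark, had food only by day (DRF, for daytime-restricted feeding) or only by night (NRF, for nighttime-restricted feeding, the reference regimen) for 7 days. Collection times are given as zeitgeber time (ZT), counted in hours from lights on, and were 0, 4, 8, 12, 16, 20 and 24. With 4 mice per regimen and time, the study had 14 groups and 56 libraries, and the labels name no genetic change and no drug in any group. Each mouse gave 1 library of poly(A) RNA from the kidney, so every level is an average over all cell types of the organ.

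The kidney sets blood phosphate by how much of the filtered ion the proximal tubule takes back. Slc34a1 and Slc34a3 encode the sodium-phosphate cotransporters NaPi-IIa and NaPi-IIc of the brush border, and Slc20a2 encodes the cotransporter PiT-2. Pdzk1 encodes a scaffold protein that binds transporters at the apical membrane. Parathyroid hormone and the bone hormone FGF23 lower phosphate uptake, and FGF23 acts through FGFR1 together with its coreceptor Klotho, the product of Kl. Cyp27b1 makes the active hormone calcitriol, Cyp24a1 breaks it down, and Vdr encodes the receptor that calcitriol binds. Cyp24a1 is a classical target of that receptor, and FGF23 is known to raise Cyp24a1 and lower Cyp27b1.

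Reads of genes with a known length totalled 24.1 M to 27.12 M per library (M, 1e6 reads). In 9 libraries the log2 values lay apart from their group, with an SD of deviations at least 1.5 times the median library's. They were NRF ZT4 replicates 1 and 4, NRF ZT8 replicate 1, NRF ZT12 replicate 1, NRF ZT16 replicates 1 and 2, DRF ZT4 replicate 4 and DRF ZT20 replicates 2 and 4. One library of the NRF ZT24 group carries a number in the table that no label has, and is named below as unnumbered. The tissue label was checked with summed marker genes. All 5 markers of proximal tubule segments S1 and S2 were measured, with a sum of 1741 to 3644 TPM in the NRF libraries and 2141 to 3333 TPM in the DRF libraries. The sum of 3 adipose markers ranged from 0 to 2581 TPM under NRF, highest in NRF ZT12 replicate 1, and from 0 to 491 TPM under DRF. Of the 4 measured adrenal genes, Star had 3.73 to 6.59 TPM, and Cyp11a1, Cyp21a1 and Hsd3b1 each stayed at or below 0.713 TPM in every library. The part of adipose RNA in the results was not tested apart from leaving those 9 libraries out. In whole kidney, fewer cells of a type and less RNA per cell cannot be told apart.

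By mean level, Slc34a1 was the highest of the 8 genes whose values resolved into whole reads, at 3439 ± 463 TPM (SD, n = 56). Kl followed at 326 ± 66.0 TPM, Vdr at 226 ± 60.2, Cyp24a1 at 104 ± 111, Slc34a3 at 71.7 ± 16.7, Slc20a2 at 29.9 ± 4.45, Fgfr1 at 23.1 ± 1.81 and Cyp27b1 at 9.72 ± 5.60 (SD, n = 56 for each). The ranges of neighbours in this order overlapped from Kl downward, except for Slc34a3 (43.0 to 127 TPM) and Slc20a2 (22.8 to 39.0 TPM). Pdzk1 did not resolve into whole reads at its annotated exon length of 3556 bases. Its level of 1240 ± 200 TPM (SD, n = 56) therefore rests on that length and is not ranked here. Between the lowest and the highest library, Cyp24a1 ranged 164-fold, from 3.92 to 645 TPM, and Cyp27b1 13.1-fold, from 2.17 to 28.4 TPM. Fgfr1 ranged only 1.47-fold and Slc20a2 1.71-fold. Each SD here covers mice, times and regimens together.

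**Figure D1:**
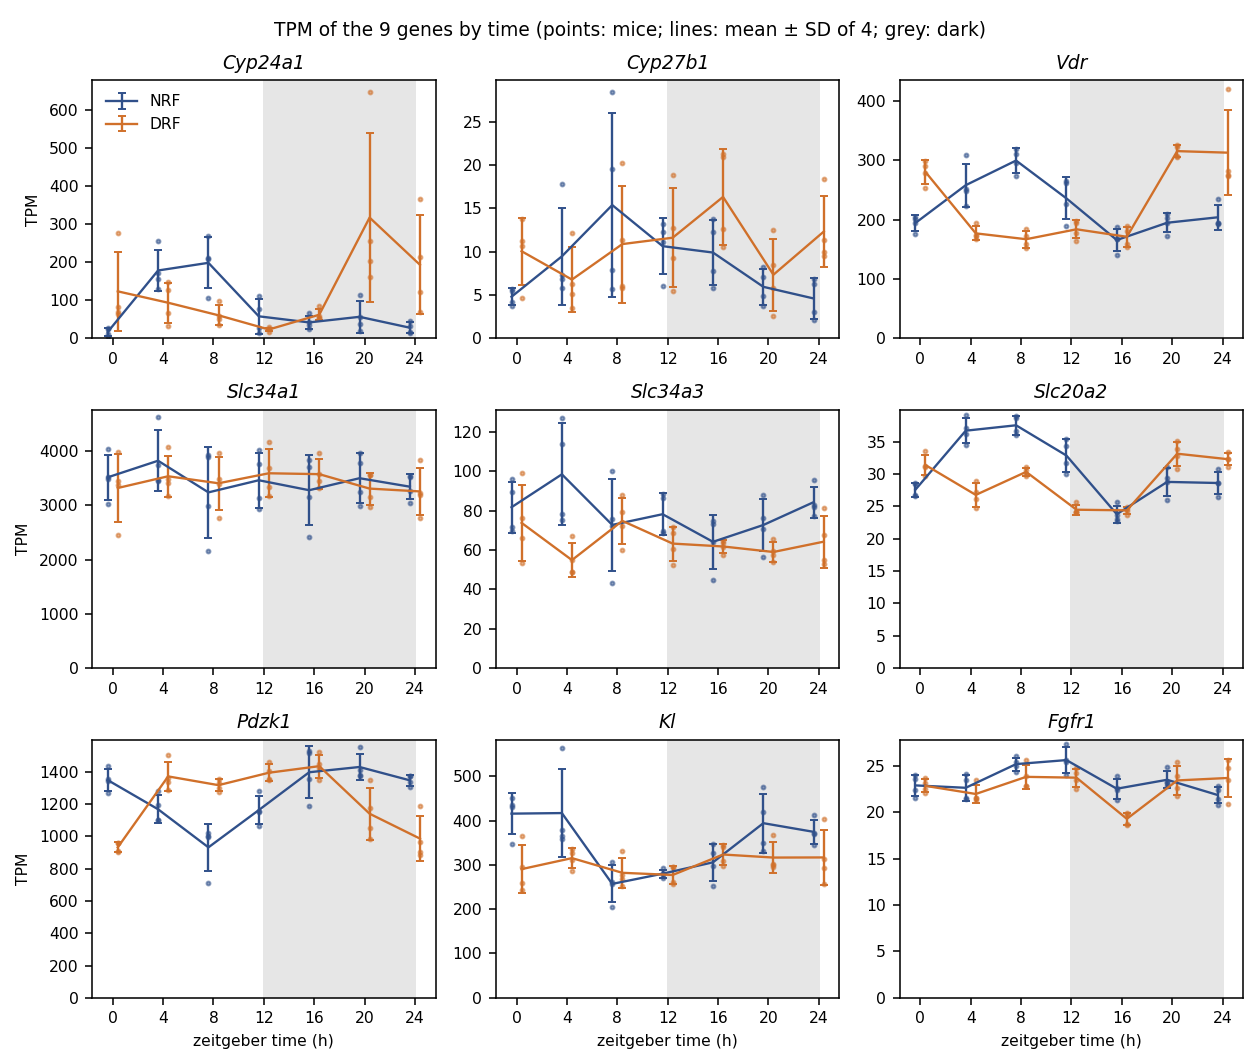
Level in TPM (vertical axis, from 0) against zeitgeber time in hours for the 9 genes, with 1 point per mouse and a line through the mean ± SD of 4 mice, NRF in blue, DRF in orange and the dark phase in grey. Cyp24a1 and Vdr were highest at ZT8 under NRF and at ZT20 under DRF, while the group means of Slc34a1 stayed between 3238 and 3821 TPM.

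RefSeq's promoter table (GRCm38.p6) had entries for 6 of the 9 genes. The 250 bases before the start are shown for the 3 genes whose level differed between regimens at some time and whose window held a half-site of the vitamin D receptor element. The half-sites searched were AGGTCA and AGTTCA on both strands, and capitals mark them. Pdzk1 has a second entry, which held neither.
Vdr, chr15:97908297-97908546, minus strand: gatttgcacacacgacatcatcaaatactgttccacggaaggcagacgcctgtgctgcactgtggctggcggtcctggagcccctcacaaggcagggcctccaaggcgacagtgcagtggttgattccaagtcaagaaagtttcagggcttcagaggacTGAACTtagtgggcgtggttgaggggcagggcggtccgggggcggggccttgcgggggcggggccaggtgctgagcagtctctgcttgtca
Slc34a3, chr2:25234235-25234484, minus strand: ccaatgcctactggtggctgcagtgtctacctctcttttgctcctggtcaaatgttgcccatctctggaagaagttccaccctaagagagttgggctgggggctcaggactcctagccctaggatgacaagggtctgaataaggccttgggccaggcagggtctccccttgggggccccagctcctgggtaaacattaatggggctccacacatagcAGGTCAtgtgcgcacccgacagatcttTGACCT
Pdzk1, chr3:96829815-96830064, plus strand: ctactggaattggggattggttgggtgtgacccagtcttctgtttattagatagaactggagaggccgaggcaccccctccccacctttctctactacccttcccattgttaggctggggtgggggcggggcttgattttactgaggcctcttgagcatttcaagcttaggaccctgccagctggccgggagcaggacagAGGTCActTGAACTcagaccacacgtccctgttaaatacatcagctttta
Of 32851 promoter entries, 24.2% held one of these half-sites in the same window, so a match is common. The window of Slc34a1 also held 1, and those of Cyp27b1 and Kl held none. The E-box CACGTG and the D-box TTATGTAA, both bound by clock factors, were in none of the 7 windows and in 6.0% and 0.8% of all entries. These matches describe letters and were not tested as binding sites.

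To ask which of the genes oscillated, a 24-h cosine was fitted to log2(TPM + 1) in each regimen with limma, and a rhythm was called at a Benjamini-Hochberg adjusted p under 0.05 over 11873 genes. Under NRF, 7 of the 9 genes were called, against 53.2% of all genes tested. Under DRF, 4 of 9 were called, against 36.8%. Cyp24a1, Vdr, Slc20a2 and Pdzk1 were called under both regimens, which 24.9% of all genes were. Cyp27b1, Kl and Fgfr1 were called under NRF and not under DRF, and Slc34a1 and Slc34a3 under neither. A test for any difference among the 6 clock times, which assumes no cosine, called the same count of 7 under NRF, against 50.0% of all genes, and 5 under DRF, against 59.2%, Fgfr1 being the added gene. Tested directly as an interaction, the rhythm differed between regimens for 5 of 9 genes, against 46.6% of all genes: Cyp24a1 (adjusted p = 5.89e-06), Vdr (2.62e-10), Slc20a2 (5.03e-07), Pdzk1 (7.98e-09) and Kl (0.00586). For Fgfr1 (adjusted p = 0.0506) and Cyp27b1 (0.0896) the difference between regimens was not called. The Fgfr1 difference was called under median-of-ratios rescaling (adjusted p = 0.0105) and without any 1 of 18 libraries (lowest adjusted p = 0.0262), namely DRF ZT0 replicate 3, DRF ZT4 replicates 1, 2 and 3, DRF ZT8 replicates 1 and 4, DRF ZT12 replicates 2, 3 and 4, DRF ZT20 replicate 4, DRF ZT24 replicate 4, NRF ZT0 replicates 1 and 3, NRF ZT12 replicate 2, NRF ZT16 replicates 1, 3 and 4 and NRF ZT20 replicate 1. That of Cyp27b1 was called without DRF ZT8 replicate 3, DRF ZT20 replicate 2 or NRF ZT8 replicate 3 (lowest adjusted p = 0.0219).

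Cyp24a1, which inactivates calcitriol, had the widest swing of the 9 genes. At ZT8 the 4 NRF mice had 107, 208, 210 and 268 TPM, and the 4 DRF mice had 36.5, 50.5, 58.4 and 97.7 TPM. The groups did not overlap, and DRF was lower by -1.71 ± 0.57 in log2 units (SE, adjusted p = 0.0311). This call was lost without any 1 of replicates 2, 3 and 4 of either ZT8 group (adjusted p = 0.0587 to 0.0954). At ZT20 the order was turned. The DRF mice had 162, 204, 257 and 645 TPM and the NRF mice 20.6, 36.7, 55.0 and 115 TPM, again with no overlap, and DRF was higher by 2.51 ± 0.57 (SE, adjusted p = 0.00119). At lights on, with ZT0 and ZT24 joined, the 8 NRF mice had 3.92 to 47.1 TPM with a median of 21.3, and the 8 DRF mice had 64.7 to 366 TPM with a median of 103. Every DRF mouse was above every NRF mouse there, and the difference of 2.70 ± 0.40 in log2 units (SE, adjusted p = 7.85e-07) stood in a comparison that called 33.5% of all genes.

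The fitted peak of Cyp24a1 was at ZT7.93 ± 0.855 h under NRF and at ZT22.3 ± 0.734 h under DRF (SE), both in the part of the day without food. Its amplitude on the log2 scale was 1.35 ± 0.32 and 1.24 ± 0.22 (SE, n = 28 per regimen), against medians over all genes of 0.13 under NRF and 0.11 under DRF. Mice of a group differed widely, with 4 values from 13.7 to 112 TPM at NRF ZT12. Without clock time 8, the NRF rhythm of Cyp24a1 was not called (adjusted p = 0.123).

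Vdr, the calcitriol receptor gene, was highest at the same clock times as Cyp24a1, with less spread between mice. Under NRF it was highest at ZT8, with 273, 295, 311 and 319 TPM, and lowest at ZT16, with 140, 168, 168 and 187 TPM. Under DRF the 4 mice at ZT20 had 306, 308, 322 and 325 TPM, and those at ZT8 had 152, 159, 173 and 185 TPM. At ZT8 and at ZT20 the regimens did not overlap. DRF minus NRF was -0.84 ± 0.11 at ZT8 (SE, adjusted p = 1.63e-07) and 0.70 ± 0.11 at ZT20 (SE, adjusted p = 4.94e-06). DRF was also lower at ZT4 by -0.53 ± 0.11 (SE, adjusted p = 0.000147) and higher at lights on by 0.56 ± 0.08 (SE, adjusted p = 1.06e-07). At ZT12 DRF was lower by -0.35 ± 0.11 (SE, adjusted p = 0.015), and this call was lost without DRF ZT12 replicate 1 (0.0629), NRF ZT12 replicate 2 (0.0743) or NRF ZT12 replicate 3 (0.0682), and under median-of-ratios rescaling of the libraries (0.0541).

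At ZT16 no difference was called for Vdr, whose mean was 166 ± 19.3 TPM in NRF mice and 171 ± 17.3 TPM in DRF mice (SD, n = 4). Its fitted peak lay at ZT6.95 ± 0.452 h under NRF and ZT21.9 ± 0.519 h under DRF (SE), and its amplitude was 0.37 ± 0.05 and 0.48 ± 0.06 (SE). One DRF ZT24 mouse, replicate 4, had 421 TPM, while the other 3 had 273 to 282 TPM.

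Cyp27b1, the enzyme that makes calcitriol, was the lowest of the 9 genes, with 43 to 548 reads per library. Under NRF its mean was highest at ZT8, where the 4 mice had 5.65, 7.84, 19.6 and 28.4 TPM, and its fitted peak was at ZT10.4 ± 0.938 h with an amplitude of 0.64 ± 0.14 (SE, adjusted p = 0.00199). The spread at ZT8 covered most of the range of the gene. Without clock time 0 the NRF rhythm was not called (adjusted p = 0.134). Under DRF no rhythm was called (adjusted p = 0.404), and the group means ran from 6.79 ± 3.76 TPM at ZT4 to 16.3 ± 5.58 TPM at ZT16 (SD, n = 4). At lights on the 8 DRF mice had 4.66 to 18.4 TPM with a median of 10.9 and the 8 NRF mice 2.17 to 6.89 TPM with a median of 4.86. The groups overlapped, and DRF was higher by 1.08 ± 0.30 in log2 units (SE, adjusted p = 0.00452). No difference between regimens was called for Cyp27b1 at the other 5 clock times.

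For Slc34a1, the main brush-border phosphate cotransporter, no rhythm and no difference between regimens or times was called in the planned fits. Its group means lay between 3238 ± 840 TPM at NRF ZT8 and 3821 ± 557 TPM at NRF ZT4 (SD, n = 4). The lowest mouse of NRF ZT8 had 2158 TPM and the highest of NRF ZT4 had 4633 TPM. The amplitude was 0.05 ± 0.06 under NRF (adjusted p = 0.724) and 0.06 ± 0.04 under DRF (SE, adjusted p = 0.510). Averaged over clock times, DRF minus NRF was 0.01 ± 0.06 in log2 units (SE, adjusted p = 0.948). The largest difference at a clock time was 0.14 in size.

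For Slc34a3, the other member of the brush-border pair, a difference at the same clock time was called at ZT4 only. The NRF mice had 75.0, 78.0, 114 and 127 TPM and the DRF mice 48.7, 48.8, 54.8 and 67.1 TPM, with no overlap. DRF was lower by -0.81 ± 0.19 (SE, adjusted p = 0.000916), in a comparison that called 30.8% of all genes. The S1 and S2 marker sum there was 2731 ± 609 TPM in NRF mice and 2463 ± 207 TPM in DRF mice (SD, n = 4). With that sum as a term of the fit, an alternative chosen after seeing the data, the difference was -0.65 (adjusted p = 1.03e-06). Averaged over clock times, Slc34a3 was lower under DRF by -0.27 ± 0.07 (SE, adjusted p = 0.0110), but this was not called under median-of-ratios rescaling (adjusted p = 0.0567), on the deposited values (0.0827) or without clock time 4 (0.172). Its NRF rhythm was not called (amplitude 0.21 ± 0.08, SE, adjusted p = 0.0846) and was called without NRF ZT8 replicate 1 (adjusted p = 0.0112). At lights on the difference of -0.29 ± 0.13 was not called (SE, adjusted p = 0.0934), and it was called without DRF ZT0 replicate 2 (0.0337) or DRF ZT24 replicate 4 (0.0456).

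Slc20a2, the PiT-2 gene, moved by less than Cyp24a1 or Vdr but with little spread between mice. Under NRF it had 34.4, 36.2, 37.0 and 39.0 TPM at ZT4 and a mean of 37.5 ± 1.47 TPM at ZT8 (SD, n = 4). It had 22.8, 23.1, 23.6 and 25.7 TPM at ZT16. Under DRF it had 24.7, 26.2, 27.2 and 28.9 TPM at ZT4 and 30.8, 32.7, 33.9 and 35.1 TPM at ZT20. DRF was lower at ZT4 by -0.44 ± 0.05 (SE, adjusted p = 1.41e-08), at ZT8 by -0.30 ± 0.05 (6.09e-05) and at ZT12 by -0.41 ± 0.05 (2.09e-07), and the groups did not overlap at any of these times. DRF was higher at lights on by 0.18 ± 0.04 (SE, adjusted p = 0.000240) and at ZT20 by 0.20 ± 0.05 (0.00569), and the ZT20 call was lost without NRF ZT20 replicate 1 (0.0568). Its fitted peak was at ZT6.75 ± 0.427 h under NRF and ZT0.0345 ± 0.899 h under DRF (SE). The DRF rhythm was not called without clock time 0 (adjusted p = 0.118) or 12 (0.0540). Averaged over clock times, DRF was lower by -0.12 ± 0.02 (SE, adjusted p = 5.13e-05), which was not called without clock time 4 (0.0682) or 12 (0.0517).

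Pdzk1, the scaffold gene, was low at the times when Vdr was high. Under NRF it had 712, 993, 1004 and 1019 TPM at ZT8 and 1376, 1380, 1412 and 1553 TPM at ZT20. Under DRF it had 902, 909, 958 and 958 TPM at ZT0, and 1347, 1423, 1451 and 1520 TPM at ZT16. At ZT8 every DRF mouse was above every NRF mouse, by 0.51 ± 0.09 in log2 units (SE, adjusted p = 4.35e-05). At lights on every DRF mouse was below every NRF mouse, by -0.50 ± 0.06 (SE, adjusted p = 3.14e-08), and DRF was also lower at ZT20 by -0.33 ± 0.09 (SE, adjusted p = 0.00563). The differences at ZT4, 0.23 ± 0.09 (SE, adjusted p = 0.0424), and ZT12, 0.26 ± 0.09 (SE, adjusted p = 0.0281), were less firm. The first was lost without DRF ZT4 replicate 1, 2 or 3 or NRF ZT4 replicate 3 or 4 (adjusted p = 0.0577 to 0.151) and with the replicate block (0.0506). The second was lost without DRF ZT12 replicate 1 or 4 or NRF ZT12 replicate 1 or 3 (adjusted p = 0.0539 to 0.105), and under median-of-ratios rescaling (0.0715). Its fitted peak was at ZT19.9 ± 0.483 h under NRF and ZT11.4 ± 0.687 h under DRF (SE). The DRF rhythm was not called without clock time 0 (adjusted p = 0.158).

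Kl, the Klotho gene, had a rhythm under NRF that differed from that under DRF. Under NRF it had 346, 430, 435 and 450 TPM at ZT0 and 204, 257, 261 and 306 TPM at ZT8. The groups did not overlap, and the amplitude was 0.32 ± 0.05 with a peak at ZT23.4 ± 0.738 h (SE, adjusted p = 9.12e-05). Under DRF the 7 group means stayed between 277 ± 21.1 and 323 ± 23.3 TPM (SD, n = 4), and the amplitude was 0.07 ± 0.05 (SE, adjusted p = 0.410). The difference between the 2 rhythms (adjusted p = 0.00586) was not called without clock time 0 (0.0614) or without replicate 3 of every group (0.0502). At lights on DRF was lower by -0.39 ± 0.09 (SE, adjusted p = 0.000981), with 243 to 404 TPM and a median of 294 against 345 to 450 TPM and a median of 392. At ZT4 DRF was lower by -0.38 ± 0.13 (SE, adjusted p = 0.0258). NRF ZT4 replicate 1 had 565 TPM there, while the other 3 had 359 to 378 TPM. Without it the difference at ZT4 was -0.22 (adjusted p = 0.217), and the call was also lost without DRF ZT4 replicate 3 (0.0829) and under median-of-ratios rescaling (0.143).

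Fgfr1, the receptor gene, had the narrowest range over single libraries of the 9 genes. Under NRF it ranged from a mean of 21.8 ± 0.91 TPM at ZT24 to 25.6 ± 1.39 TPM at ZT12 (SD, n = 4), with an amplitude of 0.08 ± 0.02 (SE, adjusted p = 0.00798). This rhythm was not called without clock time 0 (adjusted p = 0.114), 8 (0.0740) or 12 (0.133). Under DRF it had 18.6, 18.8, 19.8 and 19.9 TPM at ZT16, below all 52 other libraries. The NRF mice at ZT16 had 21.3, 22.3, 22.6 and 23.9 TPM, so DRF was lower by -0.21 ± 0.05 (SE, adjusted p = 0.00712), which was not called on the deposited values (0.0671) or without the 9 libraries apart from their group (0.0726). ZT16 called 8.55% of all genes. Averaged over clock times, DRF was lower by -0.07 ± 0.02 (SE, adjusted p = 0.0292), which was not called under median-of-ratios rescaling (0.264), without clock time 8 (0.0700), 12 (0.107) or 16 (0.324), or without DRF ZT20 replicate 1 (0.0546), NRF ZT4 replicate 4 (0.0507) or NRF ZT12 replicate 1 (0.0521). With Slc34a3 and Slc20a2 added, 3 of 9 genes had a called difference in the mean over clock times, against 12.2% of all genes. All 3 were lower under DRF, as were most genes called, since 359 of those 1450 genes were higher. The median difference over all genes was -0.0282, and 0.00132 under median-of-ratios rescaling.

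**Figure D2:**
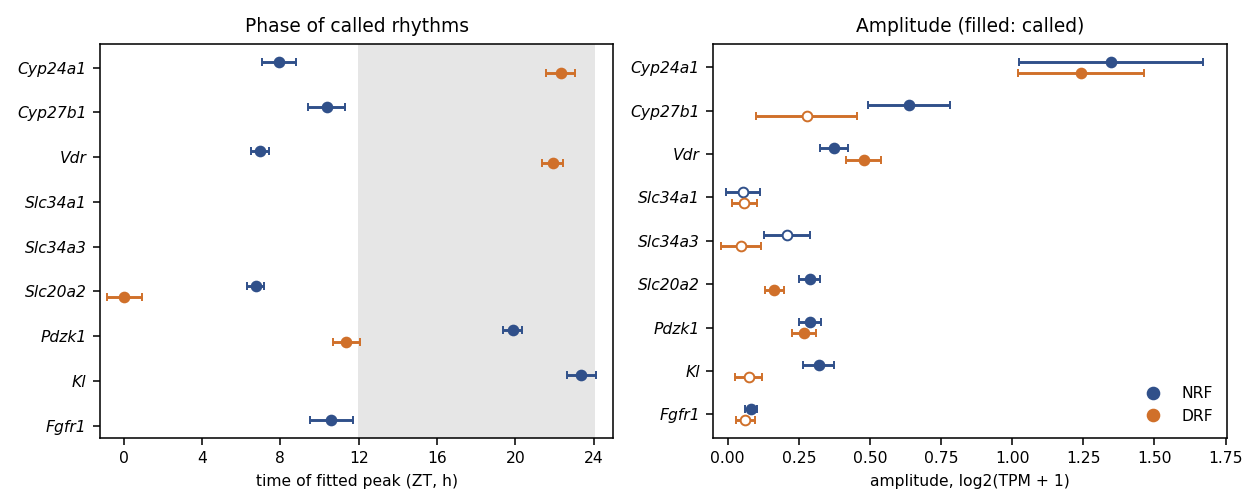
Left, time of the fitted peak (ZT in hours, ± SE) of each called 24-h rhythm, NRF in blue, DRF in orange and dark phase in grey. Right, amplitude on the log2(TPM + 1) scale (± SE), filled where called: Kl and Cyp27b1 had open DRF points at 0.07 and 0.28.

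For the 4 genes called under both regimens, DRF phase minus NRF phase, on the shorter way round the clock, was -9.62 ± 1.13 h for Cyp24a1, -9.05 ± 0.688 h for Vdr, -8.49 ± 0.840 h for Pdzk1 and -6.72 ± 0.995 h for Slc20a2 (SE). A negative value is an earlier peak under DRF. These shifts and their SEs rest on a single 24-h cosine. Under DRF all 4 genes departed from it, by the 12-h term of the next paragraph. For Slc20a2 that term had an amplitude of 0.174, against 0.164 for the 24-h cosine. The DRF rhythms of Slc20a2 and Pdzk1 were not called without clock time 0. Among the 2959 genes called under both regimens, the median size of the shift was 6.11 h, and 34.4% shifted by at least 8 h. A shift of exactly 12 h would keep a gene at the same distance from the start of feeding.

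A cosine of 12 h was added to the 24-h terms, and its call says that a daily profile departs from a single cosine, whether by a second rise or by a sharper shape. Under DRF it was called for 5 of 9 genes, against 30.2% of all genes: Cyp24a1, Vdr, Slc20a2, Fgfr1 and Pdzk1. Its amplitude was 0.27 for Vdr (adjusted p = 0.000127), 0.17 for Slc20a2 (1.60e-06), 0.17 for Pdzk1 (0.00104), 0.12 for Fgfr1 (0.00157) and 0.70 for Cyp24a1 (0.0228). Slc20a2 had 2 rises in its group means under DRF, with 26.8 ± 1.79 TPM at ZT4, 30.3 ± 0.607 at ZT8, 24.5 ± 0.792 at ZT12 and 33.1 ± 1.84 at ZT20 (SD, n = 4). The calls of Vdr (0.142) and Fgfr1 (0.475) were lost without clock time 16, that of Pdzk1 without clock time 4 (0.366), and that of Cyp24a1 without clock time 0, 8, 12 or 20 (0.0561 to 0.269), DRF ZT8 replicate 1 (0.0535) or DRF ZT20 replicate 1 (0.0706). Under NRF Cyp24a1 alone was called (adjusted p = 0.0328), against 0.842% of all genes. That call was lost without any 1 of 8 libraries, namely NRF ZT4 replicate 3, NRF ZT12 replicates 1 and 4, NRF ZT16 replicate 3, NRF ZT20 replicates 3 and 4 and NRF ZT24 replicates 2 and 3 (adjusted p = 0.0517 to 0.0816).

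To ask whether a gene kept to the clock or to the meal, DRF was set beside NRF at the same clock time and beside NRF 12 h later or earlier, where both regimens are at the same point of feeding. Both sets use the same libraries, so they are given side by side. At the same clock time, 23 of 54 gene by time differences were called, against 21.6% over all genes, 10 higher and 13 lower under DRF. At the same point of feeding, 18 of 54 were called, against 18.3%, 6 higher and 12 lower. Over all genes, feeding-matched calls were mostly lower at DRF ZT12 (571 of 2258 higher) and DRF ZT16 (921 of 3932 higher). At the other feeding-matched times they were near even. The shares of all genes called at single clock times were 17.0% at ZT8, 21.1% at ZT12 and 18.9% at ZT20.

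For Vdr the median size of the 6 differences was 0.55 at matched clock times and 0.17 at matched feeding times on the log2 scale. For Cyp24a1 these medians were 1.40 and 0.77, for Pdzk1 0.30 and 0.20, and for Slc20a2 0.25 and 0.17. Kl went the other way, with 0.22 at matched clock times and 0.33 at matched feeding times. Cyp27b1 (0.39 and 0.73) and Fgfr1 (0.07 and 0.09) were also closer at matched clock times, and Slc34a1 (0.09 and 0.07) and Slc34a3 (0.28 and 0.22) a little closer at matched feeding times. These medians are descriptions, with no test between them. Kl, Cyp27b1 and Fgfr1 had no called 24-h rhythm under DRF. The SE of 1 difference at ZT4 was 0.13 for Kl, 0.43 for Cyp27b1 and 0.05 for Fgfr1. A median of sizes lies above 0 even where groups do not differ.

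The pair DRF ZT16 and NRF ZT4, both early in the fast, held 7 of the 18 called feeding-matched differences, in a comparison that called 33.1% of all genes. Of these, 6 were lower under DRF. Most genes called in that comparison were lower too, since 921 of 3932 were higher. Of the 18, 7 remained called on the deposited values as they stand and 10 without the 9 libraries apart from their group. Slc20a2 had 23.7, 24.2, 24.6 and 24.9 TPM at DRF ZT16 against 34.4 to 39.0 TPM at NRF ZT4, a difference of -0.57 ± 0.05 (SE, adjusted p = 1.93e-11). Vdr had 154, 159, 181 and 190 TPM against 224, 248, 252 and 309 TPM, a difference of -0.58 ± 0.11 (SE, adjusted p = 2.91e-05). Neither pair of groups overlapped. Slc34a3 (-0.63 ± 0.19, SE, adjusted p = 0.00792), Fgfr1 (-0.22 ± 0.05, 0.00102), Cyp24a1 (-1.49 ± 0.57, 0.0389) and Kl (-0.34 ± 0.13, 0.0422) were lower too, and Pdzk1 was higher (0.30 ± 0.09, 0.00769). The Slc34a3 call was lost without NRF ZT4 replicate 1 (0.0539). Without NRF ZT4 replicate 1 the Kl difference was -0.19 (adjusted p = 0.299), and it was not called without DRF ZT16 replicate 1, 3 or 4 either (0.0504 to 0.108), nor under median-of-ratios rescaling (0.211). The Cyp24a1 call was lost without DRF ZT16 replicate 1, 2 or 3 or NRF ZT4 replicate 1, 3 or 4 (0.0572 to 0.108), and under median-of-ratios rescaling (0.0581).

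Kl was also lower under DRF at the end and in the late part of the meal. At DRF ZT12 the 4 mice had 257, 261, 295 and 296 TPM, against 345 to 450 TPM at NRF lights on. The groups did not overlap, and the difference was -0.51 ± 0.11 (SE, adjusted p = 0.00112) where 19.0% of all genes were called. At DRF ZT8 against NRF ZT20, where 15.3% were called, it was -0.47 ± 0.13 (SE, adjusted p = 0.0101), and this was lost without NRF ZT20 replicate 2 (0.0717). At the end of the fast, DRF lights on against NRF ZT12 (11.8% called), Vdr was higher under DRF by 0.33 ± 0.09 (SE, adjusted p = 0.0133) and Pdzk1 lower by -0.28 ± 0.08 (SE, adjusted p = 0.0104). The Vdr call was lost without NRF ZT12 replicate 4 (0.134), and the Pdzk1 call without NRF ZT12 replicate 2 (0.0778) and under median-of-ratios rescaling (0.0757).

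The other 7 feeding-matched calls were of 5 genes. Slc20a2 was lower at DRF ZT12 against NRF lights on, by -0.19 ± 0.05 (SE, adjusted p = 0.00210) with no overlap, and at DRF ZT20 against NRF ZT8 (13.2% of all genes called), by -0.18 ± 0.05 (0.0197). It was higher at DRF ZT4 against NRF ZT16 (17.6% called), by 0.16 ± 0.05 (0.0270). The ZT20 call was lost without DRF ZT20 replicate 2 or NRF ZT8 replicate 1 or 4 (0.0546 to 0.0905), and the ZT4 call without DRF ZT4 replicate 3 or 4 or NRF ZT16 replicate 2 or 4 (0.0749 to 0.0867). Cyp24a1 was higher at DRF lights on than at NRF ZT12, by 1.53 ± 0.49 (SE, adjusted p = 0.0314). This call was lost without DRF ZT0 replicate 1, DRF ZT24 replicate 3 or 4 or NRF ZT12 replicate 1 or 4 (0.0559 to 0.234), the last p and a difference of 1.002 being without NRF ZT12 replicate 4. Fgfr1 was lower there by -0.13 ± 0.05 (SE, adjusted p = 0.0440), a call lost without any 1 of DRF ZT0 replicates 2, 3 and 4, DRF ZT24 replicates 3 and 4 and NRF ZT12 replicates 1, 3 and 4 (0.0509 to 0.216). Cyp27b1 was higher at DRF ZT12 than at NRF lights on, by 1.08 ± 0.37 (SE, adjusted p = 0.0331), a call lost without DRF ZT12 replicate 1, 3 or 4, NRF ZT0 replicate 4 or NRF ZT24 replicate 2 or 3 (0.0515 to 0.180). Pdzk1 was higher at DRF ZT20 than at NRF ZT8, by 0.30 ± 0.09 (SE, adjusted p = 0.0198). Without NRF ZT8 replicate 1 that difference was 0.17, and the call was lost without it (adjusted p = 0.17), without DRF ZT20 replicate 1 or 2 (0.0565 and 0.127) and under median-of-ratios rescaling (0.126).

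**Figure D3:**
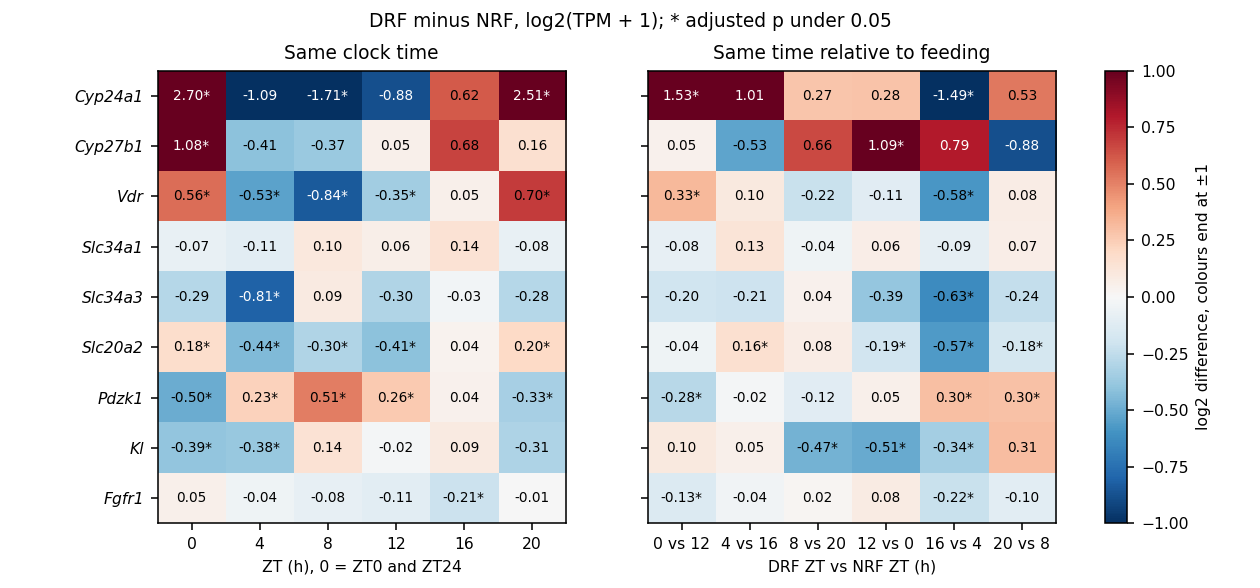
DRF minus NRF on the log2(TPM + 1) scale for each gene (rows) at the same clock time (left) and at the same time relative to feeding (right), with red higher and blue lower under DRF, colours ending at ±1 and stars for an adjusted p under 0.05. At clock time 16 only Fgfr1 (-0.21) carries a star, and at DRF ZT16 against NRF ZT4 only Cyp27b1 and Slc34a1 carry none.

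Mice taken 24 h apart at the same clock time served as a check on drift. None of the 9 genes was called between ZT24 and ZT0 in either regimen by limma, with 0.590% of all genes called under NRF and 0 under DRF. At an unadjusted p under 0.05 there were 949 genes under NRF and 486 under DRF, and none was among the 9. The difference closest to the threshold was Cyp24a1 under NRF, 16.99 ± 10.7 TPM at ZT0 and 28.2 ± 14.6 TPM at ZT24 (SD, n = 4, log2 difference 0.85 ± 0.57, SE, adjusted p = 0.701).

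Other genes of these pathways were read from 5 lists, with counts of genes called under NRF, under DRF and for a different rhythm, against 53.2%, 36.8% and 46.6% of all genes. Of 6 other phosphate transport genes, 5 were tested and 2, 2 and 2 were called. Slc34a2, a cotransporter best known from lung and gut, had 6.92 ± 1.98 TPM at NRF ZT20 and 15.1 ± 7.79 TPM at DRF ZT20 (SD, n = 4, log2 difference 0.95 ± 0.25, SE, adjusted p = 0.00462). Of 7 scaffold and parathyroid hormone genes, 3, 4 and 4 were called. Slc9a3r2, which encodes the scaffold NHERF2, peaked at ZT18.3 ± 0.474 h under NRF and ZT10.3 ± 0.545 h under DRF (SE), near the peaks of Pdzk1. Casr, the calcium-sensing receptor gene, was lower under DRF over the day by -0.22 ± 0.05 (SE, adjusted p = 0.000649).

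Of 10 FGF receptor and ERK-pathway genes, 4, 5 and 7 were called. Etv5, a transcription factor gene induced by FGF signals, peaked at ZT7.39 under NRF and ZT23.0 under DRF, with amplitudes of 0.48 ± 0.11 and 0.57 ± 0.08 (SE). The NRF mice had 22.7 ± 5.10 TPM at ZT12 and the DRF mice 7.52 ± 1.09 TPM (SD, n = 4), a difference of -1.46 ± 0.14 (SE, adjusted p = 7.71e-10). Dusp6, an ERK phosphatase gene, had 57.1 ± 5.71 TPM in NRF mice at ZT4 and 32.7 ± 2.21 TPM in DRF mice (SD, n = 4, log2 difference -0.78 ± 0.10, SE, adjusted p = 6.80e-08). The receptor gene Fgfr4 peaked at ZT19.4 under NRF and ZT8.94 under DRF.

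Of 8 genes for vitamin D uptake, 25-hydroxylation and receptor partners, 3, 5 and 4 were called. Cyp2r1, a vitamin D 25-hydroxylase gene, was low in kidney, with a mean of 3.04 TPM, and peaked at ZT22.4 under NRF and ZT10.7 under DRF. Of 6 calcium genes that respond to vitamin D, 4, 2 and 4 were called. Slc8a1, the sodium-calcium exchanger of the distal tubule, fell from 490 ± 127 TPM at ZT4 to 170 ± 28.9 TPM at ZT8 under NRF, while under DRF it had 312 ± 42.2 and 265 ± 43.8 TPM at those times (SD, n = 4). Its rhythm differed between regimens (adjusted p = 2.62e-05). The median NRF amplitude of the 5 lists, in the order given, was 0.15, 0.13, 0.17, 0.11 and 0.20, against 0.13 over all genes. Under DRF it was 0.12, 0.21, 0.22, 0.11 and 0.16, against 0.11.

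As a description, the 3 genes most like each member over the 14 group means were sought among 8226 genes with a mean of at least 10 TPM. Group means share regimen and time, so these are patterns and not links. Kl was most like Slc8a1 (r = 0.94), Sfrp1 and Slc39a3. Vdr was most like Fam83h (r = 0.95), Adnp2 and Adck2, and Slc20a2 most like Zer1 (r = 0.946), Fam171a1 and Stk11ip. For Pdzk1 they were Mgat3 (r = 0.953), Nat8f1 and Flna, and for Fgfr1 Fam174a (r = 0.957), Ppp3ca and Ttyh3. Cyp24a1 was most like Smtnl2 (r = 0.839), Klf11 and Egln3, Cyp27b1 most like Prodh (r = 0.864), Frmd4b and Tns1, and Slc34a3 most like Cltrn (r = 0.873), Atxn1 and Mthfd1. Slc34a1 was most like Pfn3 (r = 0.803) and Gys2. Pfn3 overlaps the annotated span of Slc34a1, so reads of the 2 genes may not be told apart.

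Mice of the same group also differed from each other, and the 9 genes did not do so independently. For each of the 36 pairs, the deviations of the 56 mice from their group means were correlated, with p from 100000 permutations within groups and adjustment over the 36 pairs. In all, 12 pairs were called, 11 of them positive, and 12 were called by rank. The share called among pairs of other genes was not measured, so the count cannot be called particular to these 9 genes. Slc34a1 and Slc34a3 went together most closely, with r = 0.875 and rho = 0.839 (n = 56, permutation p = 1e-05 for both, the smallest they can give, adjusted p = 9e-05, r = 0.837 without the 2 farthest mice). All 10 pairs among Slc34a1, Slc34a3, Pdzk1, Kl and Vdr were called, with r from 0.525 to 0.875. Vdr and Cyp24a1 were called with r = 0.432 and rho = 0.411 (n = 56, permutation p = 0.00491 and 0.00528, adjusted p = 0.0161, r = 0.377 without the 2 farthest mice). The one negative call was Slc20a2 with Pdzk1, r = -0.353 and rho = -0.403 (n = 56, permutation p = 0.0133 and 0.00756, adjusted p = 0.0400, r = -0.345 without the 2 farthest mice), and no negative pair was called under median-of-ratios rescaling or without the 9 libraries apart from their group. Within the 28 NRF mice 11 pairs were called and within the 28 DRF mice 5.

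The genes that went together also went with the markers of proximal tubule segments S1 and S2. The deviations of Slc34a1 correlated with those of the S1 and S2 marker sum with r = 0.945 and rho = 0.939 (n = 56, permutation p = 1e-05 for both, r = 0.945 without the 2 farthest mice). For the same marker sum r was 0.865 for Slc34a3, 0.791 for Kl, 0.734 for Pdzk1 and 0.671 for Vdr (n = 56, permutation p = 1e-05 for each, adjusted p = 2.7e-05 over 27 relations of genes and markers). With collecting duct markers r was -0.583 for Slc34a1 and -0.724 for Pdzk1 (n = 56, permutation p = 1e-05 for both), and with thick ascending limb markers -0.824 and -0.613. Of the 27 relations, 19 were called. Slc20a2 went the other way, with r = -0.312 for the S1 and S2 sum (permutation p = 0.0345, adjusted p = 0.0491). For the thick ascending limb and collecting duct sums its r was 0.324, called by the permutation test (adjusted p = 0.0450 and 0.0491) but not by rank. Fgfr1 had r = 0.417 with the collecting duct sum (permutation p = 0.00814, adjusted p = 0.0137). Cyp24a1 (r = 0.187, permutation p = 0.194), Cyp27b1 (r = 0.144, permutation p = 0.411) and Fgfr1 (r = -0.0672, permutation p = 0.660) were not called with the S1 and S2 sum (n = 56). After regression of the deviations on that sum, an alternative chosen after seeing the data, none of the 36 pairs was called by the permutation test (smallest adjusted p = 0.0976), and 9 had an unadjusted p under 0.05. Slc34a1 with Slc34a3 was then r = 0.35 (n = 56, permutation p = 0.0670). The marker genes themselves changed with time, so the sum is not a pure count of cells. Other marker sums, that of the distal convoluted tubule among them, were not correlated with the genes. Whether Kl goes more closely with those was not tested.

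**Figure D4:**
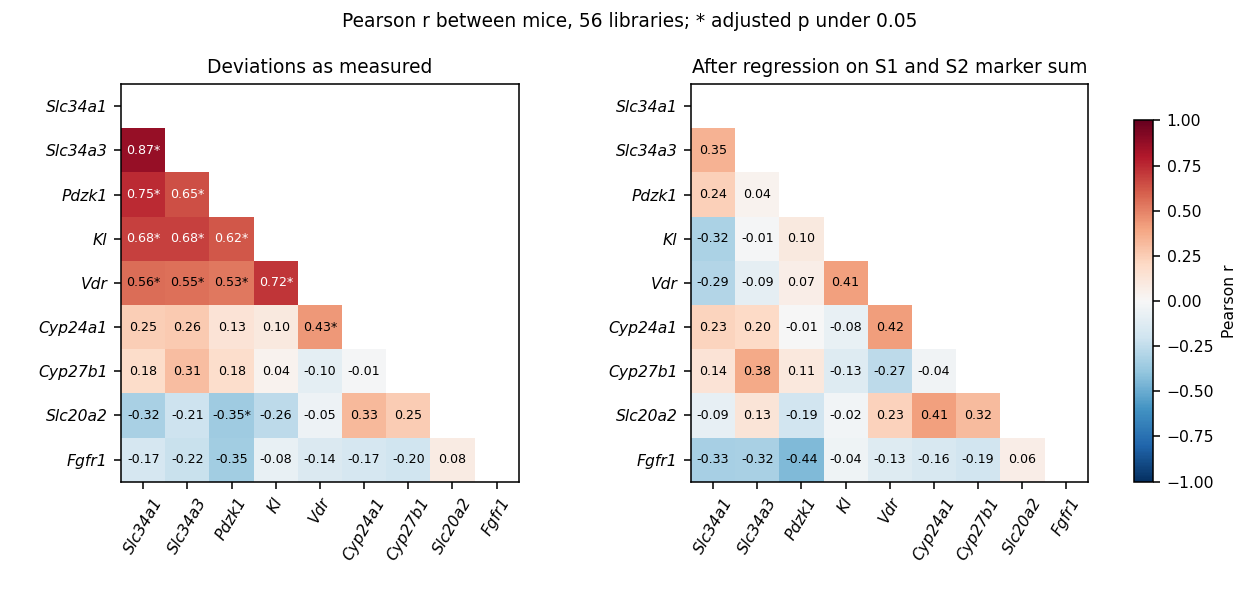
Pearson r between mice for the 36 pairs of genes, on deviations from the group mean in 56 libraries (left) and after regression on the S1 and S2 marker sum (right), with stars for an adjusted p under 0.05. The 10 pairs of the first 5 genes carry stars on the left, and no pair does on the right.

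**Figure D5:**
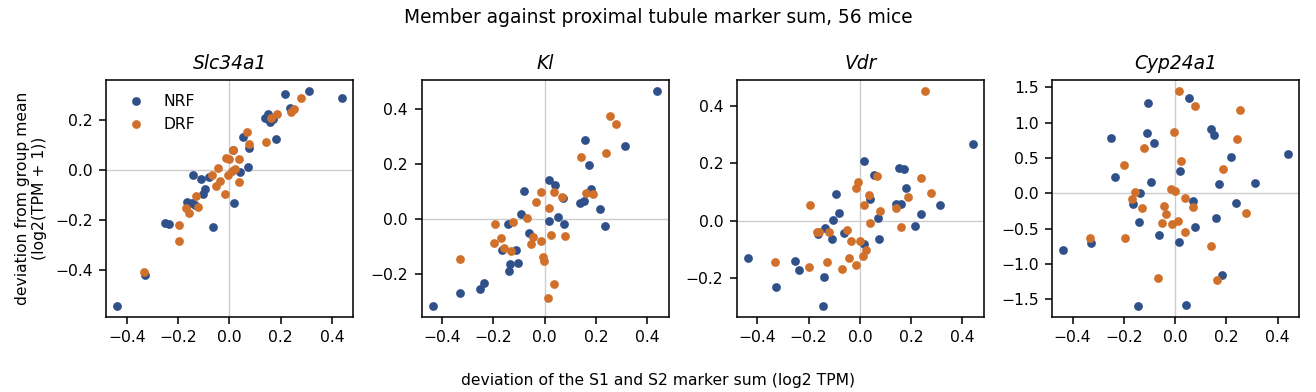
Deviation of a mouse from its group mean in the summed S1 and S2 markers (horizontal, log2 TPM) against that in Slc34a1, Kl, Vdr and Cyp24a1 (vertical, log2(TPM + 1), with axes of their own), NRF in blue and DRF in orange. Slc34a1 lies along a line (r = 0.945), and Cyp24a1 is scattered (r = 0.187).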

How the data were processed

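Kidney poly(A) RNA of 56 mice was sequenced, and 1 table of 17027 genes was used. Per the labels, the submitters' processing notes name HISAT2, Bowtie2 and RSEM and the builds mm10 and GRCm38.p6. The authors deposited values that they call TPM. They are a score here: within a gene, the deposited values scale with log2(CPM + 1) divided by gene length, and columns sum to 999145 to 999753. Whole reads (within 0.1 read) were recovered for 86.9% of genes with exon lengths of GENCODE M21 or a searched length, and turned into linear TPM. Genes with fractional reads and a mean of at least 100000 reads were left out. Of the 9 genes, 8 had whole reads, and Pdzk1, with 19.6% whole values, was kept at its annotated length, so its level and log2 differences depend on that length.

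Genes with a mean of at least 1 TPM (11873) were tested on log2(TPM + 1), whose pseudocount makes changes of low genes smaller, by limma 3.58.1 (R 4.3.3, variance trend on) and Benjamini-Hochberg adjustment over genes in each comparison. Rhythms used the 28 samples of a regimen, and the other contrasts all 14 groups. ZT0 and ZT24 were joined as 1 clock time. Correlations used numpy 2.4.6 in Python 3.11.15 and 2-sided permutations within groups. The scripts were tested on simulated data. No count test was run. The named genes are the 9 members, any gene of the 5 pathway lists, and the 3 genes most like each member, of which 1 is not reported here. The members and lists were chosen with earlier results of these data known. The deviations of same-numbered libraries of different groups had a median r of 0.00033 over 351 pairs, against 0.00861 for other-numbered libraries. Single pairs varied, with r over 0.1 in 40.2% of same-numbered pairs and a lowest r of -0.788. The p-values measure the spread between these samples.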

Additional observations from a re-analysis of the deposited data

Results flagged for a closer look

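In 9 of 126 groups of 4 mice, 1 mouse lay far from the other 3, with a gap to the nearest, as a share of the group's range, above Dixon's 95% critical value. Chance gives about 1 group in 20. Cyp24a1 at DRF ZT0 had 277 TPM in replicate 1 against 64.7 to 83.4 TPM (0.912 of the range). Cyp27b1 at NRF ZT4 had 17.8 TPM in replicate 3 against 5.81 to 7.36 TPM (0.871). Vdr at DRF ZT24 had 421 TPM in replicate 4 (0.939) and at NRF ZT24 235 TPM in the unnumbered library against 192 to 195 TPM (0.939). Slc20a2 at DRF ZT12 had 25.7 TPM in replicate 3 against 24.1 TPM in each of the others (0.974). Kl had 565 TPM at NRF ZT4 in replicate 1 (0.906) and 368 TPM at DRF ZT20 in replicate 2 against 296 to 302 TPM (0.917). Fgfr1 at DRF ZT4 had 23.5 TPM in replicate 4 against 21.4 to 21.5 TPM (0.929). Pdzk1 at NRF ZT8 had 712 TPM in replicate 1 against 993 to 1019 TPM (0.917).

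The 24-h rhythm differed between regimens, by limma's test of the interaction, for Cyp24a1 (adjusted p = 5.89e-06), Vdr (2.62e-10), Slc20a2 (5.03e-07), Kl (0.00586) and Pdzk1 (7.98e-09).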

How the results depend on the processing

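No called difference between regimens in the level of a single gene changed sign under any alternative that was run. Amplitudes and the values of the interaction test cannot be negative, so this does not cover them. Of 1632 values of the 89 named gene results under 19 alternatives, 1474 kept their side of the threshold, 134 lost a call and 24 gained one. Differences in level between regimens were among the 89 only where called in the planned fits. These could keep or lose a call and could not gain one. With replicates of 1 number left out of every group, or the unnumbered NRF ZT24 library, which leaves fewer samples, the genes called ranged from 6 to 8 for NRF rhythms, 4 to 4 for DRF rhythms, 5 to 5 for a different rhythm, 0 to 1 and 4 to 5 for the 12-h term under NRF and DRF, 1 to 3 for the mean over clock times, 16 to 23 for clock-matched and 9 to 18 for feeding-matched differences, and 0 to 0 for ZT24 against ZT0. The 5 genes with a different rhythm were not always the same. Without replicate 3, limma's interaction test lost Kl (adjusted p = 0.0502) and called Cyp27b1 (0.0324). Leaving out each library on its own gave 21 to 24 clock-matched and 15 to 18 feeding-matched calls. Genes called for the mean over clock times numbered 1 under median-of-ratios rescaling and on the deposited values, and 5, 1, 1 and 5 without clock times 0, 4, 12 and 20. On the deposited values 8 feeding-matched differences and 0 NRF 12-h terms were called. NRF 12-h terms numbered 2, 2, 2 and 0 without clock times 4, 8, 12 and 20. Without clock time 0, 2 DRF rhythms were called, and without clock time 16, 3 DRF 12-h terms. Same-numbered libraries share only a number; with the replicate block, 0 NRF 12-h terms were called, clock-matched calls numbered 22, and no other count moved. Of alternatives chosen after seeing the data, leaving out the 9 libraries apart from their group gave 11 feeding-matched calls and 0 NRF 12-h terms, and the S1 and S2 marker sum as a term gave 8 different rhythms, 2 NRF 12-h terms and 0 of 36 correlated pairs. Within DRF 5 pairs were called. The cause was not tested. Cyp27b1 had the fewest reads, 43 to 548 per library.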

Other observations

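With the S1 and S2 marker sum as a term of the limma fits, an alternative chosen after seeing the data, Slc34a1 had a called DRF rhythm (amplitude 0.11, adjusted p = 0.00108) and a called difference in rhythm between regimens (adjusted p = 0.000214), neither of which was called without the term. For Slc34a3 the NRF rhythm (amplitude 0.20, adjusted p = 0.00159), the DRF rhythm (amplitude 0.13, adjusted p = 0.0433) and the difference (adjusted p = 0.00659) were called with it. Of the 5 markers in that sum, Slc5a12 and Slc4a4 were themselves rhythmic under both regimens, and Slc22a6 under DRF and Slc13a3 under NRF.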
